A study of Drosophila melanogaster with 21 samples.

Results

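Male wing imaginal discs that lack MSL-1 were set directly against male discs that lack MLE, without passing through the heterozygous libraries of either stock. The members are 3 libraries labelled msl-1 null mutant and 3 libraries labelled mle null mutant, 6 of the 21 libraries of the series. The pair was chosen as the mutants with the lowest level of X-linked RNA in the series, so that low level is not a result here. The question put to the data was which genes still separate them.

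The series measured poly-A RNA from dissected wing discs of third-instar Drosophila melanogaster males, using a stranded mRNA kit. The msl-1 mutants carried the msl-1.L60 allele and the mle mutants the mle.9 allele, each homozygous; both genes lie on chromosome 2, so the groups are homozygous for different second chromosomes. Heterozygous males of the same stocks, with the mutant chromosome over the balancer CyO-GFP, gave 3 msl-1 and 2 mle libraries. Replicate 2 of the msl-1 heterozygotes, with 830905 counts the shallowest library of the series, was left out. It was not tested as an outlier. Heterozygous means, X levels and directions are given only without it, and the counts of genes called between heterozygotes also with it kept. Males mutant for msl-2.227 (4 libraries) and for roX1.SMC17A with roX2 deleted (3 libraries) are used only to place single genes. The labels do not say whether replicates came from separate crosses, so p-values measure the spread between these libraries, which may be technical. Titles of the msl-1 mutant libraries begin with one letter and those of the mle mutant libraries with another, and the labels do not say what the letters mark. Stock and genotype cannot be told apart.

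In Drosophila males the single X is transcribed at a raised rate by the MSL complex, a ribonucleoprotein of the proteins MSL-1, MSL-2, MSL-3, MOF and MLE with the noncoding RNAs roX1 and roX2. MSL-1 is the scaffold that joins MSL-2 at high-affinity X sites and recruits MSL-3 and MOF, the acetyltransferase for histone H4 lysine 16. MLE is an RNA helicase that remodels the roX RNAs and allows their assembly into the complex, and it also has roles in RNA processing outside dosage compensation. Loss of either protein is lethal to males, so the discs come from larvae that would not reach adulthood.

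The 3 msl-1 mutant libraries held 1388848, 2377847 and 1869447 counts, and the 3 mle mutant libraries 1659482, 2379651 and 2483435. Values per library below are CPM (counts scaled to a common library total) of the tested genes, scaled on autosomal genes, in the order of replicates 1, 2 and 3. The first principal component, with 55.3% of the variance, placed the msl-1 libraries at 24.7, 31.7 and 20.2 and the mle libraries at -32.5, -4.17 and -40.0. Replicate 2 of the mle mutants thus lies between the groups: its median correlation was 0.946 with its own group and 0.948 with the msl-1 libraries. Each main result is therefore given with and without it. The discs expressed wing disc genes in every library, among them vestigial (vg, a wing selector) at 59.8 to 82.7 CPM in msl-1 mutants and 42.6 to 163 CPM in mle mutants, and nubbin (nub, a wing pouch gene) at 139 to 145 CPM in msl-1 mutants and 129 to 261 CPM in mle mutants.

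The groups also differed by transcript length, in a graded way. Genes with under 1 kb of exon had a median log2 fold change (msl-1 over mle) of 0.32, those of 1 to 2 kb 0.10, those of 2 to 4 kb -0.09 and those over 4 kb -0.29. Short genes minus long genes, as medians of centred log2 CPM within a library, gave 0.21, 0.37 and 0.27 in the msl-1 libraries and -0.31, 0.09 and -0.64 in the mle libraries. All 3 msl-1 libraries were therefore above all 3 mle libraries, with mle replicate 2 the nearest to them. Its part in single results was not tested; the main counts are also given after the trend was removed, an alternative added after the data had been seen.

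**Figure D1:**
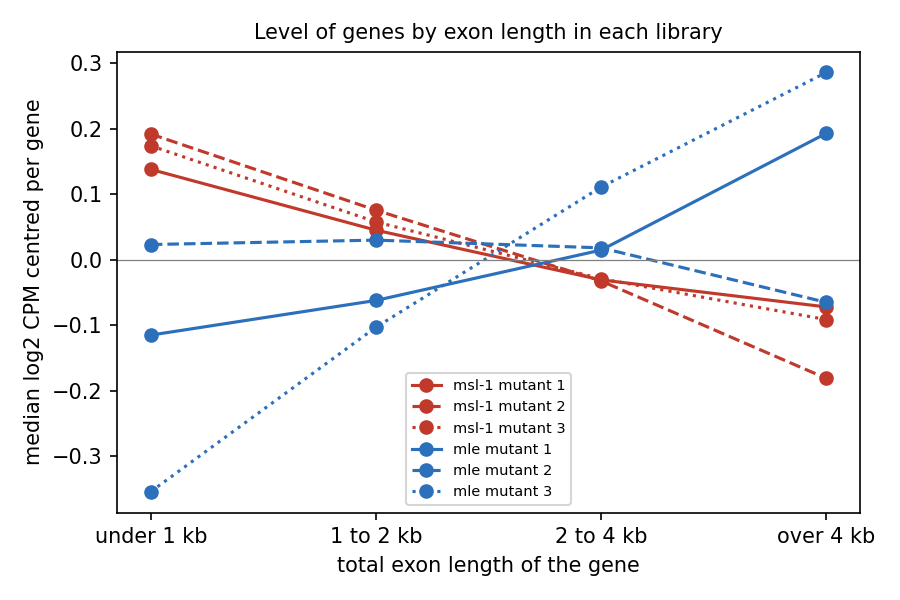
Median log2 CPM, centred per gene over the 6 libraries, against total exon length class; each line is 1 library, red for msl-1 mutants and blue for mle mutants. Red lines run from 0.14 to 0.19 at under 1 kb down to between -0.18 and -0.07 at over 4 kb, and mle replicates 1 and 3 run the opposite way.

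Of 8248 genes tested, 308 were higher in msl-1 mutants (3.73%) and 279 were lower (3.38%) at an adjusted p under 0.05 by edgeR's quasi-likelihood test with Benjamini-Hochberg adjustment. Among them, 120 higher and 144 lower genes differed by at least 1 on the log2 scale, and 36 and 47 by at least 2. Without mle replicate 2, 1101 of 8415 genes were higher (13.1%) and 1156 lower (13.7%), and 579 of the 583 calls that could be tested in both fits were called in the same direction. Leaving out any other library gave fewer calls, between 99 and 192 higher and between 93 and 193 lower. After the length trend was removed, 294 genes were higher (3.56%) and 260 lower (3.15%), 411 of them shared with the first fit, which is 70% of its calls and 74.2% of those after removal.

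The RNA of the mutated genes went opposite to a loss of transcript. The mle RNA (chromosome 2R, 5974857 to 5980778, BDGP6) stood at 100.1, 94.3 and 99.3 CPM in msl-1 mutants and at 226, 231 and 246 CPM in mle mutants. The groups did not overlap, and mle was lower in msl-1 mutants, with a log2 fold change of -1.26 ± 0.13 (SE; edgeR adjusted p = 0.000132). The msl-1 RNA (chromosome 2L, 18683720 to 18688800) had 112, 143 and 131 CPM in msl-1 mutants, against 57.4, 85.2 and 83.0 CPM in mle mutants. It was higher in msl-1 mutants by a log2 fold change of 0.77 ± 0.17 (edgeR adjusted p = 0.0227), a call lost without msl-1 replicate 2, msl-1 replicate 3 or mle replicate 1 (highest adjusted p 0.105). Heterozygous males (means of 2 libraries each) had 109 CPM of mle in msl-1 heterozygotes and 148 CPM in mle heterozygotes, and 87.3 CPM of msl-1 in msl-1 heterozygotes and 62.6 CPM in mle heterozygotes. A null allele need not lower its RNA, and the labels do not give the lesions, so these levels do not check the genotypes.

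The other subunits did not pass the test. The RNA of msl-2, whose protein is made in males and nucleates the complex, was at 84.2, 79.2 and 81.6 CPM in msl-1 mutants and 74.6, 90.6 and 71.3 CPM in mle mutants (log2 fold change 0.05 ± 0.15). The chromodomain subunit msl-3 had a log2 fold change of 0.12 ± 0.19 and the acetyltransferase gene mof one of 0.15 ± 0.20. The noncoding roX1 stood at 135, 131 and 109 CPM in msl-1 mutants and at 64.5, 114 and 131 CPM in mle mutants, overlapping values with a log2 fold change of 0.26 ± 0.22 (edgeR adjusted p = 0.473). For scale, roX1 averaged 3536 CPM in msl-1 heterozygotes and 3746 CPM in mle heterozygotes, 1745 CPM in msl-2 mutants and 50.5 CPM in roX1 roX2 mutants. Its partner roX2 was too low to test, at 0.759, 0 and 0.571 CPM in msl-1 mutants and 2.96, 1.24 and 2.63 CPM in mle mutants.

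The X level of every msl-1 mutant library lay slightly below that of every mle mutant library, in a design that cannot reach p under 0.05. Median X minus median autosomal level, in log2 CPM centred per gene, was -0.018, -0.066 and -0.022 in the msl-1 libraries and 0.053, 0.015 and 0.023 in the mle libraries. The groups did not overlap: the means were -0.035 ± 0.026 in msl-1 mutants and 0.030 ± 0.020 in mle mutants (SD, n = 3 each), a difference of -0.065 with a two-sided exact permutation p = 0.1, the smallest that 3 libraries against 3 allow. Without mle replicate 2 the difference was -0.068. From fitted fold changes, X genes lay -0.064 from autosomal genes, a median X level in msl-1 mutants of 95.6% of that in mle mutants. A shift this small was sensitive to the genes admitted: it was -0.027 when genes needed 1 CPM in 3 libraries and 0.0074 with no filter on low counts, and the difference per library was -0.025 (exact permutation p = 0.3) after the length trend was removed.

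Within the X, most bins of 1 Mb lay slightly below the autosomes in the main fit. Bins and expression classes were not computed with the length trend removed, after which the shift was smaller. Of 22 bins of 1 Mb with at least 20 tested genes, 19 had a median below the autosomal median, with bin medians from -0.26 to 0.14, and 57.2% of X genes lay below the autosomal median. By mean expression, X minus autosomes was 0.02 in the lowest class of X genes, -0.06 in the middle class and -0.08 in the highest. Calls were not more frequent there: 37 of 1276 X genes were higher and 36 lower, 5.72% in all. The small chromosome 4 had 0 higher and 6 lower of 74 genes with a median of -0.14, but 5 higher and 4 lower with a median of 0.05 once the length trend was removed.

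Heterozygous males of the 2 stocks also differed in X level. The mutants were chosen for their low X level, so neither that level nor their closeness to each other is a result. On a scale shared by the 4 groups, X minus autosomes averaged -0.23 in msl-1 mutants and -0.18 in mle mutants, 0.18 in msl-1 heterozygotes and 0.42 in mle heterozygotes. The fitted difference between msl-1 and mle heterozygotes was -0.26, in 2 libraries each. In a separate fit of all 10 libraries, with its own set of tested genes, the mutant difference less the heterozygous difference was 0.23 on the log2 scale. That value rests on the same choice of mutants.

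**Figure D2:**
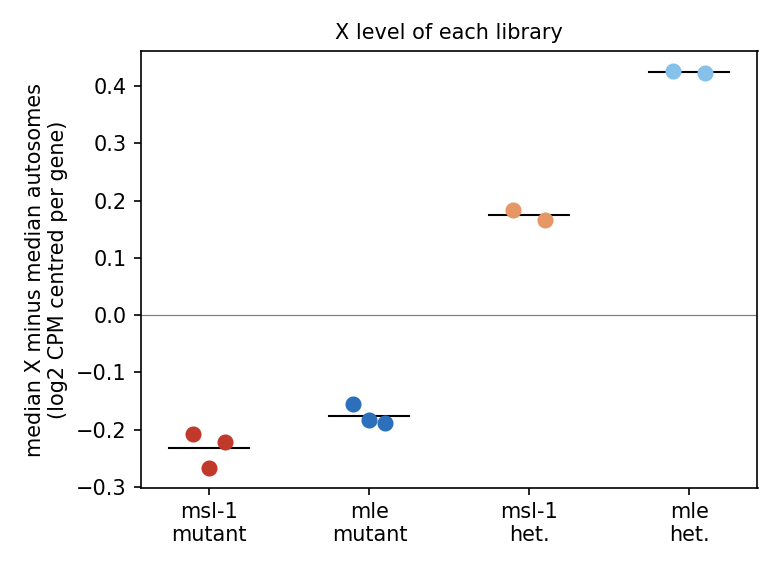
Median X minus median autosomal level (log2 CPM centred per gene over the 10 libraries) by group; points are libraries and lines are group means. The msl-1 mutants average -0.23 and the mle mutants -0.18, a low level for which they were chosen. The msl-1 heterozygotes average 0.18 and the mle heterozygotes 0.42.

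The largest differences lay on chromosome 2. Of 3105 tested genes on it, 283 were called (9.11%), against 197 of 3586 on chromosome 3 (5.49%) and 73 of 1276 on the X (5.72%). Without mle replicate 2 these shares were 28.7%, 25.3% and 24.9%, so the higher share on chromosome 2 was less marked in proportion. For calls with a log2 fold change of at least 2 in size the counts were 66 genes on chromosome 2 (2.13%), 10 on chromosome 3 (0.279%) and 5 on the X (0.392%). Removing the length trend left 62, 8 and 5 such genes. Leaving out mle replicate 2 gave 101, 46 and 20 (3.18%, 1.25% and 1.55%). Within 1 Mb either side of msl-1 17 of 121 genes were called (14%), and within 1 Mb of mle 9 of 82 (11%), against 9.11% over chromosome 2. Without mle replicate 2 the shares were 29.7% near msl-1 and 35.7% near mle, against 28.7%. Which of these differences follow from the lost protein and which from the different second chromosomes cannot be told apart in the mutants.

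**Figure D3:**
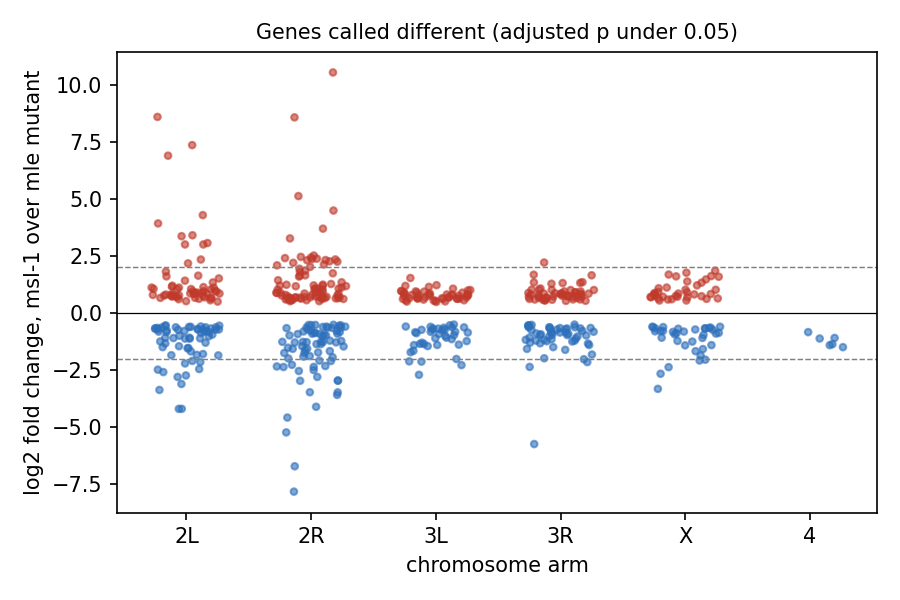
Log2 fold change (msl-1 over mle mutant) of each called gene by chromosome arm; red points are higher and blue points lower in msl-1 mutants, and dashed lines mark a size of 2. Most points beyond the dashed lines, 66 genes, sit on arms 2L and 2R.

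Neighbouring genes with near-absent RNA in one group made up much of the upper end. A row of adjacent cytochrome P450 genes on 2R, members of a family of oxidases that metabolise hormones and foreign compounds, were high in msl-1 mutants. Cyp4p2 (9237512 to 9239831) had 690.2, 682 and 879 CPM in msl-1 mutants, against 0, 0 and 1.13 CPM in mle mutants. With 3 counts in all mle libraries, the ratio was 1690 (exact 95% interval 578 to 8197, counting error only; edgeR adjusted p = 1.4e-08). Cyp4p1 (9240041 to 9242139) had 488, 380 and 571 CPM in msl-1 mutants, against 3.55, 0 and 0.751 CPM in mle mutants (log2 fold change 8.57 ± 0.46). Cyp4p3 (9242320 to 9244410), the last of the row, was at a far lower level than its neighbours in msl-1 mutants and, like them, near absence in mle mutants, at 19.0, 20.8 and 26.3 CPM in msl-1 mutants and 2.96, 1.24 and 2.63 CPM in mle mutants (log2 fold change 3.27 ± 0.39).

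A second pair of neighbours lies on 2L. The gene ppk13 (21086790 to 21088751), of the pickpocket family of sodium channel subunits, had 307, 305 and 321 CPM in msl-1 mutants, against 1.77, 0.414 and 0.376 CPM in mle mutants (log2 fold change 8.60 ± 0.28, edgeR adjusted p = 6.6e-09). The adjacent CG33509 (21084605 to 21086506) had 253, 170.4 and 264 CPM in msl-1 mutants and 1.77, 0 and 2.25 CPM in mle mutants (log2 fold change 7.36 ± 0.41). In both pairs the groups were far apart and every msl-1 library was high.

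Further along 2L, lncRNA:CR43144 and Cul2 are neighbours (21657625 to 21658249 and 21658735 to 21663698). The noncoding RNA had 274, 241 and 294 CPM in msl-1 mutants, against 1.18, 1.24 and 3.75 CPM in mle mutants (log2 fold change 6.90 ± 0.28). Cul2, a cullin scaffold of ubiquitin ligases, had 834, 735 and 922 CPM in msl-1 mutants and 88.2, 97.2 and 110.4 CPM in mle mutants (log2 fold change 3.07 ± 0.16, edgeR adjusted p = 4.7e-07). Other autosomal genes high in msl-1 mutants were dpr21, a cell surface immunoglobulin gene, with a log2 fold change of 5.13 ± 0.42, CG12129 with 4.49 ± 0.23, and the heterochromatic Marf1 with 4.29 ± 0.35. The calls on dpr21, CG12129, Marf1 and the neighbouring genes above held when any one library was left out.

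Other genes were near absence in msl-1 mutants and higher in mle mutants. CG18853 on 2R had 0, 0 and 0.571 CPM in msl-1 mutants, against 60.4, 50.04 and 59.3 CPM in mle mutants. That is 1 count against 381, a level in mle mutants 299.9 times that in msl-1 mutants (exact 95% interval 53.5 to 11875, counting error only; edgeR adjusted p = 8.5e-07). Obp99a, an odorant-binding protein gene on 3R, had 1 count in msl-1 mutants and 91 in mle mutants, a level in mle mutants 71.6 times that in msl-1 mutants (exact 95% interval 12.5 to 2860, counting error only). Mal-B2, a maltase gene, had 0.759, 2.21 and 2.28 CPM in msl-1 mutants and 40.8, 28.9 and 36.05 CPM in mle mutants (log2 fold change -4.20 ± 0.35). The adenylate cyclase gene ACXC had 1.52, 1.33 and 1.71 CPM in msl-1 mutants and 36.7, 34.3 and 15.8 CPM in mle mutants (log2 fold change -4.20 ± 0.46). The gene with the identifier FBgn0010549 on 2R had 0.759, 3.54 and 5.14 CPM in msl-1 mutants, against 50.9, 67.4 and 56.7 CPM in mle mutants (log2 fold change -4.10 ± 0.33), a call that held without any one library. Optix, a homeobox gene, had a log2 fold change of -4.58 ± 0.69, a call lost without msl-1 replicate 1 or msl-1 replicate 2 (highest edgeR adjusted p 0.0961). Mean CPM in msl-1 and mle heterozygotes was 5.82 and 2.65 for ACXC, 2.63 and 6.0 for Mal-B2, and 6.60 and 12.6 for FBgn0010549. These means lay below every mle mutant library. By contrast Obp99a had 25.8 and 13.9 CPM and Optix 39.4 and 33.2 CPM, above every msl-1 mutant library.

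Part of these differences was also present in the heterozygous libraries, which the direct contrast does not use. Of the 66 chromosome 2 genes with a difference of at least 2, 52 could be tested in heterozygotes. The estimate had the same direction there for 44 (84.6%), with a median of 0.74 on the log2 scale, and 6 were called. Of the 15 such genes on chromosome 3 and the X, 13 could be tested. The direction was the same for 4 (30.8%), with a median of -0.02, and 0 were called. Over all genes tested in heterozygotes 0.297% were called. The estimate was lower in msl-1 heterozygotes for 48.1% of genes on 2L, 49.2% on 2R, 46.6% on 3L, 46.7% on 3R and 75.1% on the X. The share of all genes with the same direction in mutants and heterozygotes was not computed. Directions rest on 2 libraries a stock, and with msl-1 heterozygous replicate 2 kept edgeR called 0 genes between the heterozygotes. CG18853 had 0 CPM in msl-1 heterozygotes and 19.8 CPM in mle heterozygotes, and Cyp4p2 had 117 CPM in msl-1 heterozygotes and 1.53 CPM in mle heterozygotes. By contrast Cul2 had 109.9 CPM in msl-1 heterozygotes and 99.4 CPM in mle heterozygotes. Cul2 also varied in the other mutants, at 445 CPM in msl-2 mutants and 1206 CPM in roX1 roX2 mutants, as did lncRNA:CR43144 at 148 CPM and 328 CPM in the same order.

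**Figure D4:**
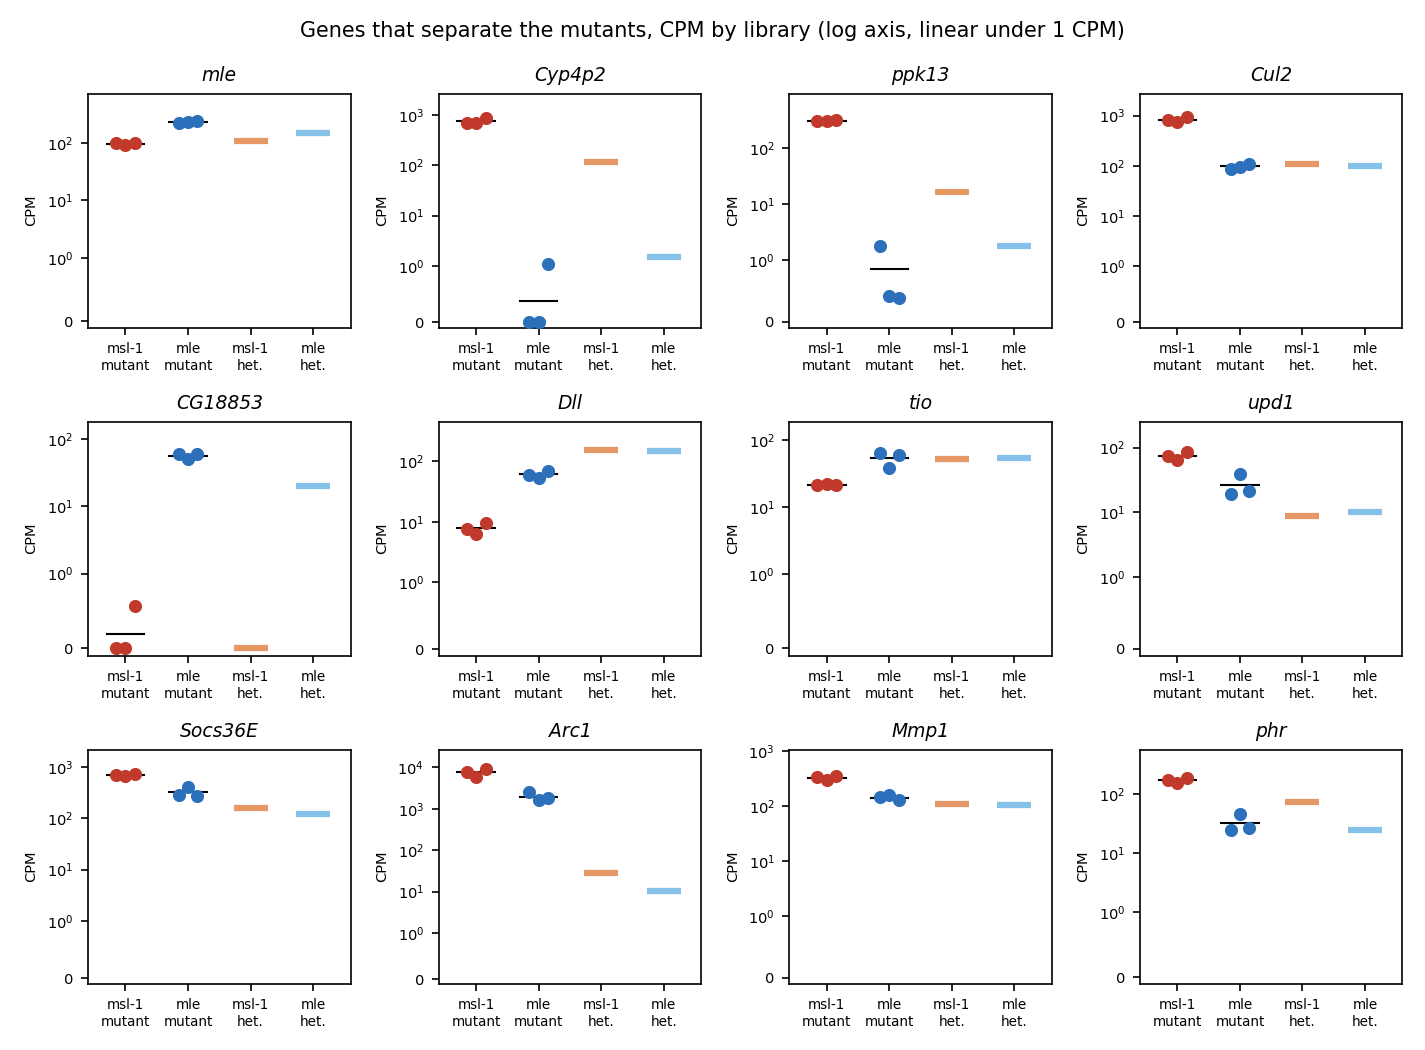
CPM of 12 genes on a log axis (linear under 1 CPM); points are libraries of msl-1 mutants (red) and mle mutants (blue) with the mean as a line, and bars are means of 2 heterozygous libraries of each stock. Cul2 and Dll separate the mutants but not the heterozygotes, whereas Cyp4p2 and CG18853 separate both.

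Several genes that pattern the disc from its centre to its edge were lower in msl-1 mutants. Of 29 tested proximal-distal and notum selector genes, 0 were higher and 8 lower, with a median log2 fold change of -1.0, against -0.03 over all genes; 3.38% of all genes were lower. Without mle replicate 2 the counts were 0 and 23 of 27, after the length trend was removed 0 and 7 of 29, and over all single libraries left out 3 to 23 were lower and 0 higher. DESeq2 called 14 lower and 0 higher, and at an unadjusted p under 0.05 there were 23 and 0. Over all genes, 2242 of 8248 reached that unadjusted level, and 13.7% were called lower without mle replicate 2. Dll, the homeobox gene of distal appendage fate, had 7.58, 6.20 and 9.70 CPM in msl-1 mutants, against 59.2, 53.3 and 70.2 CPM in mle mutants (log2 fold change -2.97 ± 0.23, edgeR adjusted p = 1.6e-05). Its groups did not overlap, and heterozygotes were alike at 153 CPM in msl-1 and 148 CPM in mle.

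The zinc finger gene tio, a paralogue of teashirt in the proximal disc, had 21.2, 22.1 and 21.7 CPM in msl-1 mutants, against 63.3, 38.5 and 59.3 CPM in mle mutants (log2 fold change -1.30 ± 0.22, edgeR adjusted p = 0.00444). The T-box genes Doc1, Doc2 and Doc3 are neighbours on 3L. Doc2 had 3.79, 2.66 and 4.57 CPM in msl-1 mutants and 25.4, 12.0 and 16.5 CPM in mle mutants (log2 fold change -2.28 ± 0.42), while Doc3 had a log2 fold change of -1.0 ± 0.20 and Doc1 one of -1.35 ± 0.36. The homeobox genes aristaless (al, -2.15 ± 0.44) and B-H1 (-2.37 ± 0.59) and the transcription cofactor gene dachshund (dac, -1.53 ± 0.40), all log2 fold changes, made up the rest. Calls on Dll, tio and Doc2 held without any one library. Doc3 lost its call without msl-1 replicate 2 or msl-1 replicate 3 (highest edgeR adjusted p 0.0776), al and dac each without 4 of the 6 libraries (highest 0.071 and 0.173) and Doc1 without any library but mle replicate 2 (highest 0.162), while B-H1 kept its call in none of these fits and was not tested in 2 of them.

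In vestigial and nubbin it was mle replicate 2 that went with the msl-1 libraries. The values of vg were 82.7, 59.8 and 72.5 CPM in msl-1 mutants and 131, 42.6 and 163 CPM in mle mutants. Its log2 fold change was -0.66 ± 0.50 (edgeR adjusted p = 0.449 with all 6 libraries and 0.000698 without mle replicate 2). None of 18 anterior-posterior patterning genes was called by edgeR, 1 was lower by DESeq2 and 1 at an unadjusted p under 0.05. Without mle replicate 2, 5 of them were lower. Of 22 dorsal-ventral genes 1 was higher and 0 lower, against 2 and 10 without that library. Over all genes, 2242 of 8248 had an unadjusted p under 0.05. Without mle replicate 2, 13.1% of all genes were higher and 13.7% lower, against 3.73% and 3.38% with all 6 libraries. Among markers of other cells, the 15 tested larval muscle genes had a median of -1.15 with 0 called by edgeR (1 lower by DESeq2, 2 lower at an unadjusted p under 0.05), and their summed level ran from 1062 to 1212 CPM in msl-1 mutants and from 1029 to 2509 CPM in mle mutants. The high value is mle replicate 3. Without mle replicate 2 the median of the 15 genes was -1.46, with 3 lower. The troponin gene TpnC73F, 1 member, had 25.0, 36.7 and 19.4 CPM in msl-1 mutants and 8.88, 19.0 and 420.2 CPM in mle mutants. In mle replicates 1 and 2 this member thus lay below every msl-1 library, against the direction of the list median. Of 13 tested adult muscle precursor markers 2 were lower, rst in all fits with a library left out and Dr in 1 of 6, and their sum ran from 413 to 543 CPM in msl-1 mutants and from 499 to 777 CPM in mle mutants. The 12 neuron and glia markers had a median of -0.60 and 1 lower gene, brp, a synaptic active zone gene that lost its call without any one of 5 libraries (median -0.77 and 3 lower without mle replicate 2); their sum ran from 912.3 to 1180 CPM in msl-1 mutants and from 1038 to 1243 CPM in mle mutants. The part of muscle and neural tissue in the selector result was not tested, and in whole discs fewer cells of a type and less RNA per cell cannot be told apart.

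The cytokines of the JAK/STAT pathway were higher in msl-1 mutants. In this pathway the secreted ligands upd1, upd2 and upd3 bind the receptor dome and act through the kinase hop and the factor Stat92E, and discs make the ligands on wounding. Ligand RNA was higher for all 3 genes, which lie together on the X. For upd1 the levels were 74.3, 63.7 and 84.5 CPM in msl-1 mutants and 18.9, 38.5 and 21.4 CPM in mle mutants (log2 fold change 1.48 ± 0.24, edgeR adjusted p = 0.00431). Levels of upd2 were 24.3, 30.1 and 25.1 CPM in msl-1 mutants and 9.47, 10.3 and 6.76 CPM in mle mutants (log2 fold change 1.59 ± 0.26, edgeR adjusted p = 0.00441). Those of upd3 were 34.1, 28.8 and 27.4 CPM in msl-1 mutants and 9.47, 12.8 and 7.13 CPM in mle mutants (log2 fold change 1.61 ± 0.27, edgeR adjusted p = 0.00441). No ligand value overlapped between the groups, and mle replicate 2 was the mle library nearest to the msl-1 libraries for each.

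Downstream, the feedback inhibitor Socs36E, a known target of the pathway, was also higher, at 701, 664 and 730 CPM in msl-1 mutants and 289, 402 and 274 CPM in mle mutants (log2 fold change 1.12 ± 0.17, edgeR adjusted p = 0.00281). The kinase hop was lower (log2 fold change -0.68 ± 0.18, edgeR adjusted p = 0.0391), a call lost after the length trend was removed (adjusted p = 0.125) and without any one library but mle replicate 2 (highest adjusted p 0.189). The receptor dome (-0.34 ± 0.16) and Stat92E (0.06 ± 0.16) did not pass. In all 4 of 12 tested JAK/STAT genes were higher and 1 lower, with a median of 0.07; 3.73% of all genes were higher. The 4 higher calls held without any one library. In heterozygotes upd1 was at 8.71 CPM in msl-1 and 9.99 CPM in mle, below every msl-1 and mle mutant library. It averaged 9.99 CPM in msl-2 mutants and 14.7 CPM in roX1 roX2 mutants.

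Genes of wound response and regeneration moved in part. Of 29 tested JNK and regeneration genes, 4 were higher and 2 lower (7 and 5 without mle replicate 2), with a median of 0.04. Over all genes the shares were 3.73% higher and 3.38% lower (13.1% and 13.7% without mle replicate 2). The most abundant was Arc1, which encodes a capsid-forming protein that carries RNA between cells: 7813, 5861 and 8929 CPM in msl-1 mutants, against 2511, 1595 and 1775 CPM in mle mutants (log2 fold change 1.94 ± 0.23, edgeR adjusted p = 0.000425). Heterozygotes had 28.7 CPM of Arc1 in msl-1 and 10.2 CPM in mle, so both mutants were far above them. Its neighbour Arc2 was higher as well, by 1.44 ± 0.28 on the log2 scale (edgeR adjusted p = 0.017), a call lost without msl-1 replicate 1 or msl-1 replicate 3 (highest adjusted p 0.0796).

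The matrix metalloprotease Mmp1, a JNK target, had 334, 293 and 354 CPM in msl-1 mutants and 145, 156 and 126 CPM in mle mutants (log2 fold change 1.20 ± 0.14, edgeR adjusted p = 0.000349). The JNK target scaf had 195, 188 and 191 CPM in msl-1 mutants and 106, 122 and 89.4 CPM in mle mutants (log2 fold change 0.86 ± 0.15). Calls on Mmp1, scaf and upd2 were lost when further genotypes shared the fit (highest adjusted p 0.0695, 0.15 and 0.0519). The phosphatase puc, the usual JNK reporter, had a log2 fold change of -0.18 ± 0.17 and overlapped between groups. The kinase hep was lower (log2 fold change -0.65 ± 0.18), a call lost without any one library but mle replicate 2 (highest edgeR adjusted p 0.193). The metalloprotease inhibitor Timp was lower too (-1.15 ± 0.23), a call lost without msl-1 replicate 1, msl-1 replicate 3 or mle replicate 1 (highest edgeR adjusted p 0.0761).

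Ilp8, an insulin-like peptide that delays pupariation when discs are damaged, was picked out after its values were seen. It had 674, 874 and 825 CPM in msl-1 mutants, against 76.9, 219.6 and 31.9 CPM in mle mutants, with no overlap. The log2 fold change of 2.85 ± 0.76 did not pass with all 6 libraries (edgeR adjusted p = 0.101) and passed without mle replicate 2 (adjusted p = 0.0009). Heterozygotes averaged 1.06 CPM in msl-1 and 1.35 CPM in mle.

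Of 31 DNA damage genes, 5 were higher and 2 lower (11 and 4 without mle replicate 2), with a median of 0.08. Over all genes 3.73% were higher and 3.38% lower with all 6 libraries, and 13.1% and 13.7% without mle replicate 2, so the 4 lower members lie near the share of all genes. The photolyase gene phr on 2R had 174, 153 and 190.1 CPM in msl-1 mutants, against 24.9, 46.3 and 26.7 CPM in mle mutants (log2 fold change 2.39 ± 0.22). The gene phr also separated the heterozygotes, at 72.1 CPM in msl-1 and 24.1 CPM in mle (log2 fold change 1.58, edgeR adjusted p = 0.00696). It lies at 7825289 to 7827319, close to CG18853 (7829062 to 7830429), which differed the other way. Each overlaps another gene by 17 bases on the opposite strand, phr with Prosalpha1 and CG18853 with Prosalpha1R. Prosalpha1 had no counts in any of the 6 libraries. How reads with several matches were counted is not stated, so the levels of phr and CG18853 are uncertain. A link between their differences was not tested. The end-joining gene Ku80 had 124, 161 and 150 CPM in msl-1 mutants and 75.2, 88.9 and 70.6 CPM in mle mutants (log2 fold change 0.89 ± 0.15, edgeR adjusted p = 0.00543). The tumour suppressor p53 had 105, 92.9 and 107 CPM in msl-1 mutants and 36.1, 57.5 and 27.4 CPM in mle mutants (log2 fold change 1.32 ± 0.23), a call lost without mle replicate 1 (edgeR adjusted p = 0.0593). The break repair genes rad50 (0.62 ± 0.14) and mre11 (0.61 ± 0.16) were higher on the log2 scale, calls that were both lost without any one library but mle replicate 2 (highest edgeR adjusted p 0.136 and 0.194). Of 16 apoptosis genes 2 were higher, p53 and Corp, a regulator of p53, and 0 lower (0 to 4 higher over single libraries left out; 4 higher by DESeq2). The death gene rpr had 54.6, 56.7 and 63.4 CPM in msl-1 mutants and 27.2, 40.9 and 14.6 CPM in mle mutants and narrowly missed the threshold (log2 fold change 1.08 ± 0.30, edgeR adjusted p = 0.0553; 0.000638 without mle replicate 2).

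Some detoxification genes outside the Cyp4p row were also higher in msl-1 mutants. Of 21 glutathione transferases, which conjugate glutathione to reactive compounds, 4 were higher and 1 lower (8 and 1 without mle replicate 2, at least 1 and 0 over single libraries left out). The shares of all genes were 3.73% higher and 3.38% lower, and 13.1% and 13.7% without mle replicate 2. GstE1 had 64.5, 80.5 and 65.1 CPM in msl-1 mutants and 16.0, 17.8 and 7.89 CPM in mle mutants (log2 fold change 2.36 ± 0.26, edgeR adjusted p = 0.000228). In heterozygotes it had 64.3 CPM in msl-1 and 17.8 CPM in mle, close to the mutant levels. GstE11, on the same arm, was lower (log2 fold change -1.45 ± 0.26; lost without msl-1 replicate 3, edgeR adjusted p = 0.0515). Of 25 tested P450 genes 6 were higher, the 3 Cyp4p genes among them, and 0 lower, against 9 and 2 without mle replicate 2; by DESeq2 8 were higher and 1 lower. Only the 3 Cyp4p calls held in every fit with a library left out.

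RNA encoded by the mitochondrial genome was higher in msl-1 discs. It made up 3.72%, 2.98% and 3.12% of counts in msl-1 mutants and 1.09%, 1.77% and 1.18% in mle mutants, without overlap. Of 15 tested mitochondrial genes 12 were higher and 0 lower with a median of 1.41, and all 15 were higher without mle replicate 2; leaving out other libraries left as few as 6. The ATP synthase subunit gene mt:ATPase6 had 6852, 6023 and 6826 CPM in msl-1 mutants, against 757, 1102 and 552 CPM in mle mutants (edgeR adjusted p = 2.2e-05; at most 0.00112 without any one library). The cytochrome oxidase gene mt:CoI had 8828, 7273 and 7177 CPM in msl-1 mutants and 2530, 5331 and 3695 CPM in mle mutants (edgeR adjusted p = 0.0314; lost without any one library but mle replicate 2, highest 0.168). The stocks differed in the same way as heterozygotes: mitochondrial RNA was 2.52% and 2.54% of counts in msl-1 heterozygotes and 1.31% and 1.14% in mle heterozygotes, and 6 of 17 genes were higher with a median of 1.47. Mutant minus heterozygous change differed between the stocks for 0 of 19 mitochondrial genes by edgeR (2 at an unadjusted p under 0.05), median 0.33.

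Nuclear genes for energy metabolism and translation had positive medians, and in the 3 lists given next edgeR called 0 lower. Of 65 nuclear respiratory chain genes 14 were higher with a median of 0.47, of 76 cytoplasmic ribosomal protein genes 6 with a median of 0.45, and of 70 mitochondrial ribosomal genes 7 with a median of 0.35. Without mle replicate 2, when 13.1% of all genes were higher against 3.73% with all 6 libraries, the counts were 44, 31 and 32. Without other single libraries the counts fell as low as 1, 0 and 1; DESeq2 called 18, 24 and 5 higher. The members are short, with median exon lengths of 871, 922 and 783 bases, and after the length trend was removed 7, 4 and 1 were called and the medians were 0.28, 0.20 and 0.10. The complex III gene ox had 77.4, 68.6 and 90.2 CPM in msl-1 mutants and 28.4, 30.6 and 17.3 CPM in mle mutants (log2 fold change 1.64 ± 0.21, edgeR adjusted p = 0.000858), and the mitochondrial ribosomal gene mRpL37 had a log2 fold change of 0.95 ± 0.18. Of 31 proteasome genes 1 was higher (0 to 17 over single libraries left out, 0 after the trend was removed). Ldh, the lactate dehydrogenase gene and 1 of 14 glycolytic genes, had 133, 132 and 161 CPM in msl-1 mutants and 46.2, 56.2 and 43.9 CPM in mle mutants (log2 fold change 1.54 ± 0.16, edgeR adjusted p = 0.000143), a call lost when further genotypes shared the fit (highest adjusted p 0.0965).

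**Figure D5:**
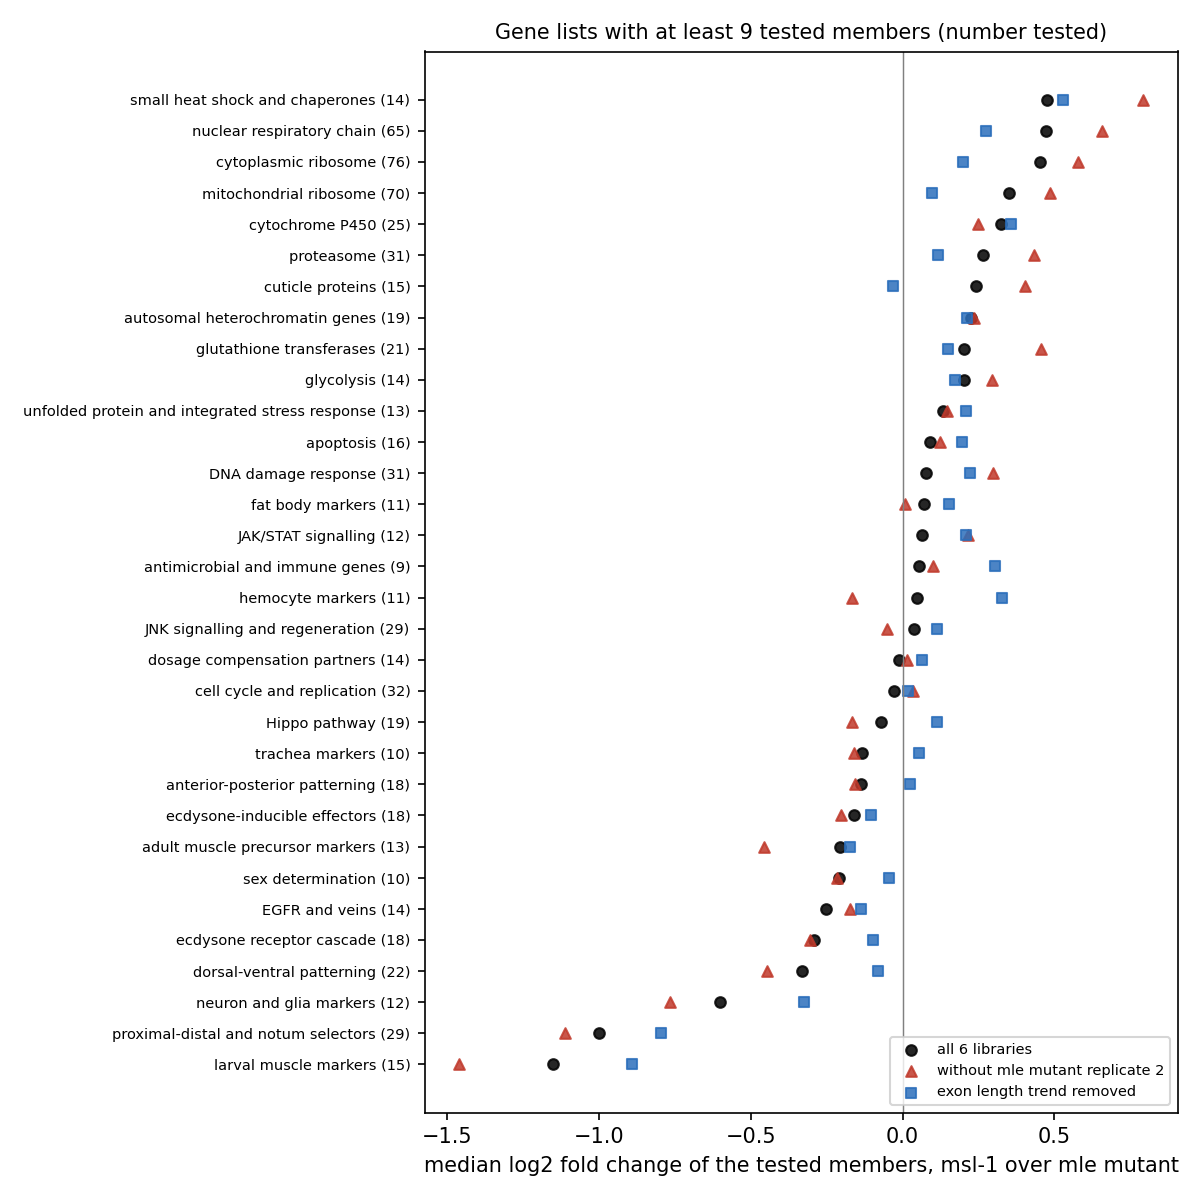
Median log2 fold change (msl-1 over mle mutant) of the tested members of each gene list, with the number tested in brackets; circles use all 6 libraries, triangles leave out mle replicate 2 and squares have the exon length trend removed. Selector genes stay at the low end, at -1.0 with all libraries, and the respiratory chain median falls to 0.28 with the trend removed.

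Other gene groups had few calls with all 6 libraries. With all 6 libraries edgeR called 0 of 32 cell cycle and replication genes and 0 of 14 EGFR and vein genes. Without mle replicate 2 it called 3 and 4. DESeq2 called 1 and 2, and 6 and 5 had an unadjusted p under 0.05. Over all genes, 2242 of 8248 had an unadjusted p under 0.05. In the fit without mle replicate 2, 13.1% of all genes were higher and 13.7% lower, against 3.73% and 3.38% with all 6 libraries. Among ecdysone receptor cascade genes, 1 of 18 was higher, the nuclear receptor ftz-f1, and 2 were lower, the nuclear receptors Hnf4 and Hr96; each lost its call without at least 3 of the single libraries. Without mle replicate 2 the counts of this list were 1 higher and 7 lower, with a median of -0.31; in that fit 13.7% of all genes were lower. Of 19 Hippo pathway genes 1 was higher, the growth regulator Myc, at 643, 527 and 569.7 CPM in msl-1 mutants and 412, 309 and 322 CPM in mle mutants (log2 fold change 0.74 ± 0.16), lost without msl-1 replicate 1 or msl-1 replicate 3 (highest edgeR adjusted p 0.0887). Fat body, hemocyte and trachea markers had 0 called by edgeR among 11, 11 and 10 tested genes (0, 0 and 1 by DESeq2; 2, 2 and 4 at an unadjusted p under 0.05), and no gut marker was high enough to test, with a summed level of at most 13.3 CPM in msl-1 mutants and 30.4 CPM in mle mutants.

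On the X itself the genes with the largest differences were mostly low in RNA. Pdzd8 had 0, 1.77 and 1.14 CPM in msl-1 mutants and 12.4, 10.7 and 11.6 CPM in mle mutants (log2 fold change -3.32 ± 0.57, edgeR adjusted p = 0.00543). Remo had 7.58, 7.52 and 5.14 CPM in msl-1 mutants and 24.9, 16.5 and 32.3 CPM in mle mutants (log2 fold change -1.86 ± 0.33). The abundant lncRNA:CR40469 was higher, at 1673, 1244 and 1625 CPM in msl-1 mutants and 577, 553 and 281 CPM in mle mutants (log2 fold change 1.69 ± 0.26), a call lost when all 13 mutant libraries shared the fit (edgeR adjusted p = 0.0525). Further X genes by the same ranking were aspr, lncRNA:CR43264 and PGRP-SA, an immune recognition gene, with log2 fold changes of 1.86, 1.77 and 1.62, and CG32639 and X11Lbeta, with -2.08 and -2.04. These 5 lost their calls without at least 3 of the single libraries.

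Between the heterozygous stocks 27 of 9097 genes were called (0.297%), and 13 of them were also called in the mutants in the same direction, 2.3% of the mutant calls and 52% of the heterozygous calls that both fits tested. A test of whether the mutant difference departs from the heterozygous one called 30 of 9430 genes (0.318%), 29 of them also called in the direct contrast, with which it shares the mutant libraries. Both counts rest on 2 heterozygous libraries a stock: 0 and 1 genes were called when msl-1 heterozygous replicate 2 was kept, 511 genes passed the second test without mle mutant replicate 2, and single heterozygous libraries moved the first count between 0 and 146. At the unadjusted level of 0.05 the counts were 668 and 1299.

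The other mutants, which the contrast did not use, lay nearer to mle mutants at most of the called genes. At the 308 genes higher in msl-1 mutants, the msl-2 mutant mean was nearer to the mle mean for 83.1% and the roX1 roX2 mean for 77.6%. Of the 279 lower genes the shares were 76.3% and 80.3%. Without mle replicate 2 in the fit they were 63.9% and 64.9% of 1101 higher genes, and 71% and 72.7% of 1156 lower genes. Of 74 called genes chosen by a rule of size or list membership, 24 lay nearer to the msl-1 mean in at least one of the other mutants and 10 in both. Among the 10 were CG12129, at 105 CPM in msl-2 mutants and 63.8 CPM in roX1 roX2 mutants, CG18853 at 0 CPM in both, ACXC at 3.69 and 2.90 CPM, Pdzd8 at 1.93 and 1.31 CPM, and mle itself at 116 and 121 CPM in the same order. In roX1 roX2 mutants alone ppk13 was nearer to msl-1 mutants, with 2.07 CPM in msl-2 mutants and 176 CPM in roX1 roX2 mutants, as was Mal-B2, with 33.3 CPM and 1.41 CPM in the same order. Arc1 averaged 305 CPM in msl-2 mutants and 1381 CPM in roX1 roX2 mutants, below the msl-1 libraries in both.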

How the data were processed

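The authors deposited 1 table of whole-number counts per gene for all libraries. Per the submitters' processing notes it was made with STAR 2.6.1b and featureCounts of Subread 1.6.1, among other tools, on dm6 (BDGP6); no source used here states the strand setting or the treatment of reads with several matches, so overlapping or near-identical genes are uncertain. Of 17558 gene identifiers 17252 matched the BDGP6 annotation by identifier; the other 306 hold 5.53% of counts, and 34 names on the gene lists could not be matched and are not analysed here.

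Only the deposited counts of the 6 mutant libraries entered the main test: edgeR 4.0.16 (R 4.3.3) quasi-likelihood, robust, genes passing filterByExpr, TMM factors from autosomal genes, Benjamini-Hochberg adjusted p under 0.05. CPM use the same factors; the prior count for log2 CPM was 2. The SE of a log2 fold change is its size over the square root of the F statistic. Single values were tested by exact permutation over libraries. DESeq2 1.42.0, other filters and scalings, more genotypes in the fit, a replicate block, single libraries left out, and, added after seeing the data, removal of the exon length trend were alternatives. Deviations of same-numbered libraries correlated at 0.069, 0.387 and 0.107, and the labels state no pairing, so the main fit used none. The script was tested on simulated data.

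The rule for named genes took the MSL complex; the 6 autosomal and 4 X-linked genes called highest and lowest with a mean of at least 5 CPM and no overlap between groups; up to 4 called members per list, some of them given only within their list's counts; and 5 genes by the difference of differences. Other members are named to complete a list. The members and lists were chosen with earlier results of these data known. Depth limits genes of a few CPM; intervals cover counting error only. No 2 columns were identical.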

Additional observations from a re-analysis of the deposited data

Results flagged for a closer look

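The mutant minus heterozygous change differed between the msl-1 and the mle stock for 30 genes by edgeR's test of the difference itself, and 11 of these are among the genes chosen for naming. On the log2 scale the difference was 7.53 for lncRNA:CR43144, 5.47 for ppk13, 5.37 for dpr21, 4.68 for Cyp4p1, 3.13 for CG12129 and 2.95 for Cul2. It was negative for Obp99a at -6.65, ACXC at -5.32, the gene FBgn0010549 at -3.17, Dll at -2.98 and rst at -1.47. The heterozygous side rests on 2 libraries a stock. With msl-1 heterozygous replicate 2 kept, the test called 1 gene, lncRNA:CR43144 (6.83, adjusted p = 0.0265), and the adjusted p of the other 10 lay between 0.0682 and 0.455. CG12129 also differed between heterozygotes, with 62.7 CPM in msl-1 and 23.8 CPM in mle. No group had 4 or more libraries here, so single libraries were not tested as outliers.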

How the results depend on the processing

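The number of genes called higher was 616 with no filter on low counts, 465 with a replicate block, 120 at a log2 fold change of at least 1, and 99 to 1101 when single libraries were left out. The number called lower was 429 with the replicate block, 144 at the size limit and 93 to 1156 with single libraries left out. Whether replicate numbers pair the libraries was not settled. Same-numbered deviations correlated at 0.069, 0.387 and 0.107, all positive. The correlation was 0.0751 for msl-1 replicate 1 with mle replicate 3, and 0.257 for msl-1 replicate 3 with mle replicate 1. The labels state no pairing, so the block values are not read as a paired result. With the block, 0 of 74 called genes chosen by the naming rule lost their call. Higher calls were 52.5% of all calls, and 45.8% to 60.9% under the scaling, filter and fit alternatives. The fitted X shift was 0.0074 with no filter and -0.027 with the 1 CPM filter; the cause was not tested. The log2 fold change of msl-2, not called, ran from -0.040 without mle replicate 3 to 0.18 without mle replicate 2, and was 0.19 with the exon length trend removed. The count for heterozygotes was 0 with msl-1 heterozygous replicate 2 kept and 0 to 146 with single libraries left out. The difference of differences gave 1 gene with that replicate kept, 117 by DESeq2 and 13 to 511 with single libraries left out. Of 74 called genes chosen by the naming rule, 36 kept their call without any one library, 46 under the 8 other settings and 31 under both. The cause of these losses was not tested; fewer libraries leave fewer degrees of freedom. At 1388848 to 2483435 counts a library, differences of genes under a few CPM were not resolved.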
